A study of Drosophila melanogaster with 8 samples.

Results

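Old fly hearts from a cross made to overexpress FOXO were set against control hearts of the same age. The comparison uses 4 of the 8 arrays of the series: 2 of hearts aged to 5 weeks from the cross GMH5xFOXO, called FOXO here, and 2 of hearts aged to 5 weeks from the cross GMH5xyw, called control. All flies were adult Drosophila melanogaster, and the labels call them female. GMH5 is a driver line for transgene expression in the heart. It is part of both crosses, so both groups carry the driver, and the series title names titered overexpression of FOXO. FOXO names the cross here and not a measured level, since the foxo probe set was not higher in it, as given below. Fat and pericardial cells were sucked off the opened heart tubes before RNA extraction, and the cDNA was amplified before it was labelled. The other 4 arrays hold the same crosses at 1 week. They serve here as a reference for which transcripts young hearts carry, for the spread between replicates and for the FOXO effect at the younger age.

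FOXO is the transcription factor that insulin signalling holds out of the nucleus. When insulin signalling falls, as in starvation, FOXO enters the nucleus and switches on genes of stress resistance, lipid use, protein turnover and feedback onto the insulin pathway. In fly muscle and heart it is known for delaying the loss of protein quality control and of function with age. The heart itself is a tube of striated muscle with a valve, wrapped in a matrix and flanked by nephrocytes that filter the blood.

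Signals are log2 values, 1 per probe set. A gene is represented by its brightest probe set, and 11982 genes were named in this way among 18769 probe sets. A gene or probe set was called where limma's moderated test gave a Benjamini-Hochberg adjusted p under 0.05, and every ± after a fold change is its SE (n = 2 arrays a group). Nothing in the labels says that replicates came from separate flies or crosses, so the p-values reflect no more than the variation among these samples, possibly technical. Across probe sets the replicate correlation was 0.996 for control 5 weeks, 0.995 for FOXO 5 weeks and 0.963 for FOXO 1 week, where 2235 probe sets differed by more than 1 between the replicates. Oocyte and yolk transcripts were high on FOXO 1 week replicate 1 and low on replicate 2 (the yolk protein gene Yp2 read 13.45 and 6.18). The 4 groups share 1 estimate of the spread, so this group also widens the errors given here. The fit was therefore repeated with 6 arrays, without FOXO 1 week, and the counts of both fits are given. The medians of the 5 weeks arrays were 6.06 and 6.05 in control and 6.40 and 6.43 in FOXO hearts. As a sign of RNA quality, 3′ signal exceeded 5′ signal over 3 array control genes by a mean of 1.46 and 1.09 (control) and 1.55 and 1.40 (FOXO). The part of either in the results was not tested. Although all samples are labelled female, male germline transcripts were high on both FOXO arrays of 5 weeks, as described below. No value without such an array can be had, and at 5 weeks that signal and the cross cannot be told apart.

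The foxo transcript, which the cross should raise per the series title, read 10.32 and 10.44 on the control arrays and 10.22 and 10.24 on the FOXO arrays of 5 weeks. Both arrays labelled FOXO lay below both control arrays, against the direction of the label, and the difference did not pass the test (log2 fold change -0.15 ± 0.17, adjusted p = 0.653). At 1 week the arrays read 10.68 and 10.75 in control and 10.46 and 10.87 in FOXO hearts. Centring each array on its median gave -0.51 at 5 weeks (adjusted p = 0.0441). The labels do not say if the transgene contains the probed sequence.

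Of the 18769 probe sets, 1956 were called (10.4%): 1380 were higher in FOXO hearts (7.35%) and 576 lower (3.07%). Rises were larger than falls, with a median log2 fold change of 2.73 among the probe sets called higher and -0.90 among those called lower. Rises by more than 2 numbered 950 and falls by more than 2 numbered 30. By genes, 1234 of 11982 were higher (10.3%) and 385 lower (3.21%). The split between directions moves with the scaling: 70.6% of the called probe sets were higher with the deposited values, 51.8% after quantile normalization and 13.9% after centring each array on its median, which shifts the median of all probe sets by -0.36 from its deposited -0.16. With 6 arrays all 1956 remained called, and the counts were 1784 higher (9.51%) and 2494 lower (13.3%). Without any 1 array of 5 weeks 1192 to 1221 probe sets were higher and 167 to 207 lower, and without either control array of 1 week 1293 were higher and 281 lower.

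Transcripts that young hearts already carried were separated from the rest by a signal of at least 7 on all 4 arrays of 1 week, which are not in the comparison. Of the 6292 genes measured in young hearts 2.35% were called: 52 were higher (0.826%) and 96 lower (1.53%). The median log2 fold change of the 7652 probe sets in that class was -0.10. Among probe sets not measured in young hearts 11.8% were higher and 4.07% lower. The plot of gene levels shows both classes: rises from low signal fill the panel of genes not measured in young hearts, and the genes of the other panel lie close to the diagonal. With 6 arrays the counts among genes measured in young hearts were 176 higher (2.8%) and 564 lower (8.96%), and they include all 52 and all 96. Of the probe sets in that class 67 were higher (0.876%) and 124 lower (1.62%). Without any 1 array of 5 weeks these became 34 to 39 higher and 31 to 62 lower, and without either control array of 1 week 49 higher and 60 lower.

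**Figure D1:**
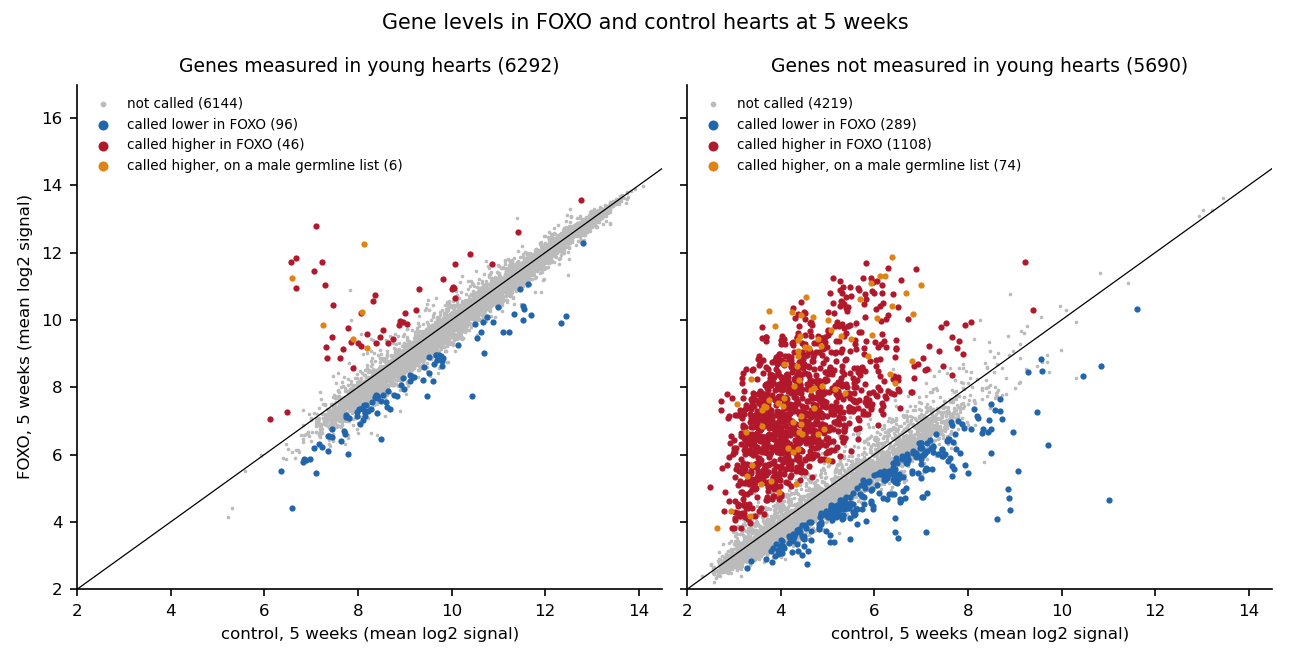
Mean log2 signal of each gene in control (x axis) and FOXO hearts (y axis) at 5 weeks, n = 2 arrays each, for the 6292 genes measured in young hearts (left) and the other genes (right). Red points were called higher, blue lower, orange higher and on a male germline list, and grey not called; the line marks equal signal, and rises from low signal fill the upper left of the right panel.

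The rises from low signal included many transcripts of the male germline, which are set apart here. Of 109 genes on the male germline lists 80 were higher (73.4%), beside 10.3% of all genes. Of 51 late spermatogenesis genes 46 were higher, with a median log2 fold change of 3.87 against -0.12 for all genes. The sperm chromatin gene tHMG1 read 3.99 and 3.51 on the control and 10.44 and 10.10 on the FOXO arrays (log2 fold change 6.52 ± 0.29, adjusted p = 2.00e-05). The male germline tubulin betaTub85D read 4.58 and 4.50 in control and 10.70 and 10.66 in FOXO hearts. The groups did not overlap in either gene, as the rule for naming them required and as in 62.4% of all probe sets. tHMG2 (5.99), the sperm protamine ProtA (5.94), Mst33A (5.72) and Mst77F (5.49) rose as well. Testis copies of proteasome subunits were higher in 9 of 11 (Prosalpha3T by 4.45) and lower in 1 (Rpt3R, -0.77, named after its values were seen), and testis copies of mitochondrial proteins in 20 of 24 (COX4L by 3.92). Of 16 spermatocyte transcription regulators 3 were higher, bol by 2.13 (its 2 dimmer probe sets read -0.53 and -0.06, adjusted p = 0.203 and 0.862), and of 7 Y-linked fertility genes 2 were, ARY by 1.17. Both of these lists are short, with medians of 0.10 and 0.43, and their counts stand beside 10.3% of all genes. Rpt3R lost its call without any 1 of the 4 arrays of 5 weeks, or without either control array of 1 week (adjusted p up to 0.217). The largest rises off these lists, CG17744 (6.20), lncRNA:CR9284 (6.13), CG30039 (6.12), CG31948 (6.09) and CG18449 (5.89), were lower in FOXO than in control hearts at 1 week, with log2 fold changes of -1.92 to -3.76.

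Markers of other cell types were read on every array. The late spermatogenesis list had a median signal of 4.87 and 4.69 on the control and 9.25 and 9.16 on the FOXO arrays of 5 weeks, and 7.41 and 7.49 on the control arrays of 1 week. Fat body markers had medians of 11.74 and 11.73 in control and 11.64 and 11.66 in FOXO hearts, and pericardial nephrocyte markers 11.29 and 11.14 in control and 11.18 and 10.93 in FOXO hearts. Fat body had 2 of 8 members lower (2 with 6 arrays), beside 3.21% of all genes (13.7% with 6 arrays). Nephrocyte had none of 6 called (0 at unadjusted p under 0.05, 1 lower with 6 arrays). Hemocyte markers, of blood cells, had medians of 10.64 and 10.73 in control and 10.07 and 10.21 in FOXO hearts, with none of 13 called (3 at unadjusted p under 0.05, 3 lower with 6 arrays). Neuron and glia markers had medians of 7.32 and 7.27 in control and 7.31 and 6.94 in FOXO hearts, with none of 9 called (4 at unadjusted p under 0.05, 4 lower with 6 arrays). Yolk protein genes and female fat body enzymes read 13.03 and 13.04 in control and 13.33 and 13.19 in FOXO hearts of 5 weeks. At 1 week they read 6.75 and 6.59 in control and 13.44 and 6.18 in FOXO hearts. Young and old control arrays thus differ in both this female signal and the male germline signal, and the part of that in comparisons with young hearts and in differences between ages was not tested. At 5 weeks their FOXO minus control difference had a median of 0.17 (-0.20 under centring) with none of 5 called (0 at unadjusted p under 0.05 and 0 with 6 arrays, Yp2 with an SE of 1.97). Accessory gland genes, which mark the male reproductive tract, lay at 3.72 and 3.70 in control and 3.12 and 3.35 in FOXO hearts, with none of 19 called (2 at unadjusted p under 0.05, 1 higher and 4 lower with 6 arrays). Eggshell and oocyte genes lay at 5.26 and 5.31 in control and 4.83 and 4.83 in FOXO hearts, with the eggshell gene Cp38 (-0.69) lower among 20 (1 higher and 6 lower with 6 arrays). The heart markers Hand (13.33 and 13.17 in control, 13.27 and 13.09 in FOXO hearts), Mlc1 and bt were high on all 4 arrays, while prc, the gene of the heart matrix protein pericardin, read 4.62 and 3.69 in control and 4.18 and 4.08 in FOXO hearts. In whole hearts fewer cells of a type and less RNA per cell cannot be told apart, and the part of the marker levels in the results below was not tested.

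**Figure D2:**
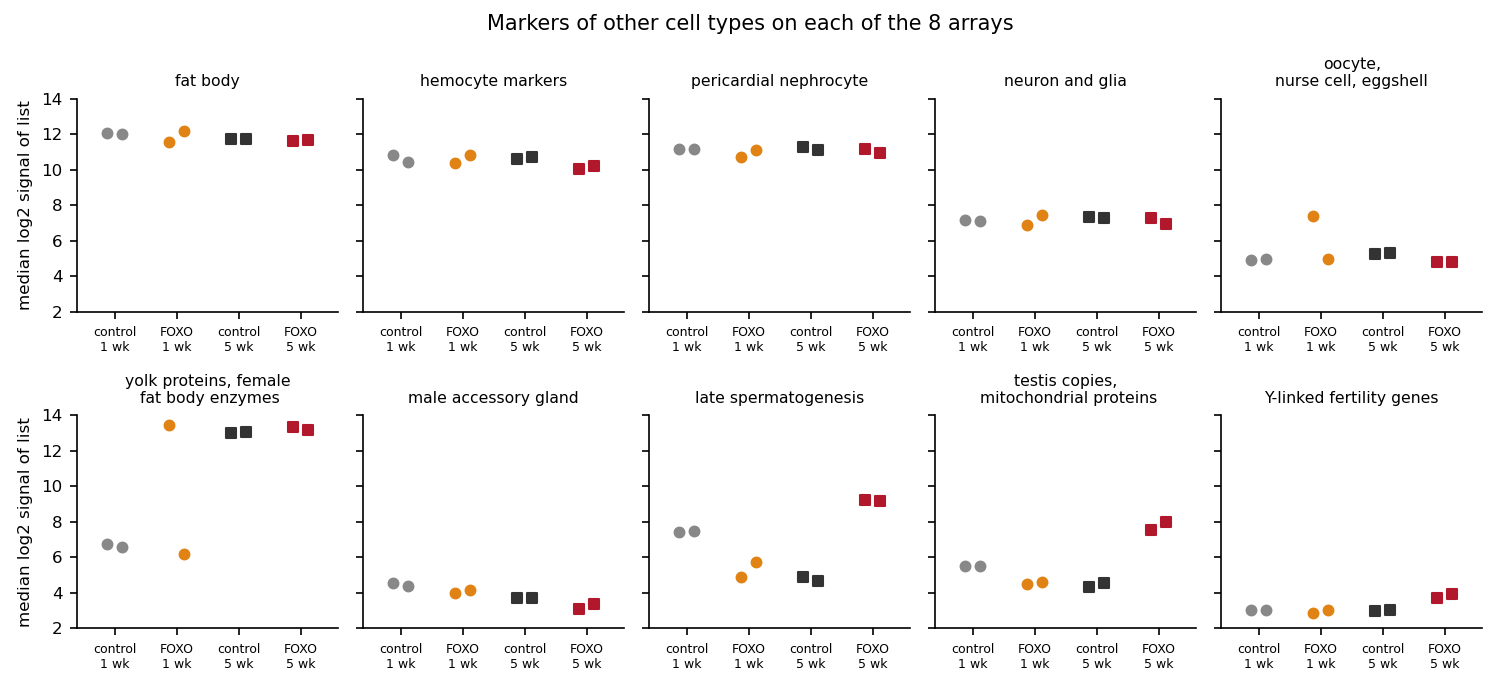
Median log2 signal of 10 marker lists (y axis) on each of the 8 arrays, 2 points per group. The male germline panels (late spermatogenesis, testis copies of mitochondrial proteins) are highest in FOXO 5 weeks, yolk genes lie above 13 in both groups of 5 weeks, and the fat body and nephrocyte medians differ little between the groups of 5 weeks.

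A first set of large falls was in transcripts that stood higher on the control arrays of 5 weeks than on the other 6. Muc11A, which encodes a mucin-type secreted protein, read 10.69 and 11.32 in control and 4.70 and 4.62 in FOXO hearts, 81.4-fold lower (log2 fold change -6.35 ± 0.65, adjusted p = 5.69e-04). Young control hearts read 4.73 and 4.28 and young FOXO hearts 7.12 and 4.88. Only the old control arrays were above 10. The gene mat read 8.75 and 9.02 in control and 4.14 and 4.55 in FOXO hearts (log2 fold change -4.54 ± 0.28, adjusted p = 5.12e-05), and CG34296 read 8.83 and 8.95 in control and 4.69 and 4.71 in FOXO hearts (log2 fold change -4.19 ± 0.22, adjusted p = 2.89e-05). Both lay below 5 on all 4 young arrays. Lsp2, a storage protein that the fat body secretes into the blood, read 10.43 and 10.46 in control and 7.62 and 7.84 in FOXO hearts (log2 fold change -2.72 ± 0.19, adjusted p = 7.28e-05), against 8.33 and 8.23 in young control hearts. FOXO hearts of 5 weeks lay below both young control arrays. Fbp2, another fat body gene, fell by 0.98. The fat body lipid carrier gene apolpp read 13.38 and 13.18 in control and 13.52 and 13.35 in FOXO hearts. Fbp2 lost its call without control 5 weeks replicate 1, control 5 weeks replicate 2 or FOXO 5 weeks replicate 2 (adjusted p up to 0.0844).

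Several more genes shared this pattern. Scp2, a calcium-binding protein of the sarcoplasm, read 6.17 and 6.70 in control and 3.76 and 3.63 in FOXO hearts (log2 fold change -2.74 ± 0.36, adjusted p = 0.00238), with 4.00 and 3.14 in young control hearts. Ag5r, of the antigen 5-related secreted family, read 9.59 and 9.85 in control and 6.19 and 6.39 in FOXO hearts (log2 fold change -3.43 ± 0.19, adjusted p = 3.26e-05). The cytochrome P450 gene Cyp6g2 read 8.51 and 8.49 in control and 6.02 and 6.09 in FOXO hearts (log2 fold change -2.45 ± 0.25, adjusted p = 6.05e-04). None of these 3 genes overlapped between the groups of 5 weeks, as the rule for naming them required and as in 62.4% of all probe sets. The cuticle protein gene Cpr49Ac read 12.41 and 12.28 in control and 9.99 and 9.85 in FOXO hearts, and at most 8.90 at 1 week (log2 fold change -2.42 ± 0.34, adjusted p = 0.00325). Here old FOXO hearts lay between the young and the old control hearts. CG16762 (-3.40 ± 0.17), CG14280 (-2.97 ± 0.22), Srg2 (-2.31 ± 0.16) and Fst (-2.30 ± 0.20), a gene known for its induction by cold, fell too (adjusted p between 2.61e-05 and 2.30e-04). Srg2 and Fst were named after their values were seen. The FOXO effect differed between the ages for each of the 8 genes of this paragraph and for Muc11A, mat, CG34296 and Lsp2. Adjusted p for the difference lay between 4.76e-05 and 0.0159. A difference was also called for 9.41% of all probe sets and for 144 of the 385 genes called lower at 5 weeks. These genes were grouped by values of 5 weeks that the difference also uses, so its test is not separate from their choice. FOXO and control hearts at 1 week differed by at most 1.49 in any of them, with adjusted p of at least 0.0555.

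A second set of genes was lower in FOXO hearts at both ages, in arrays that share no sample. At 1 week 4.33% of all probe sets were called. Ir76a, an ionotropic receptor of the chemosensory family, read 8.78 and 8.94 in control and 4.79 and 5.19 in FOXO hearts at 5 weeks (log2 fold change -3.87 ± 0.31, adjusted p = 1.65e-04). At 1 week it read 8.59 and 8.52 in control and 6.02 and 5.05 in FOXO hearts (log2 fold change -3.02, adjusted p = 0.00212). All 4 FOXO arrays lay below all 4 control arrays. TkR99D, the receptor of the tachykinin neuropeptides, read 7.18 and 7.04 in control and 5.55 and 5.34 in FOXO hearts (log2 fold change -1.66 ± 0.16, adjusted p = 4.73e-04), and fell by 1.26 at 1 week. Dh44, a diuretic hormone of the CRF family, read 7.86 and 7.54 in control and 5.40 and 5.74 in FOXO hearts (log2 fold change -2.13 ± 0.24, adjusted p = 8.64e-04), and fell by 1.51 at 1 week. Old FOXO hearts lay above young control hearts in Dh44 (4.75 and 5.28) and below them in TkR99D (8.92 and 8.67). Ugt36E1, of the UDP-glycosyltransferases, fell by 1.77 and CG14451 by 2.54 at 5 weeks, with log2 fold changes of -1.44 and -1.67 at 1 week. Each of these calls at 5 weeks held without any 1 array, and the calls at 1 week were not tested in that way.

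Rnf11, a ring finger protein of the ubiquitin system, was among the brightest falls. It read 12.47 and 12.41 in control and 10.20 and 10.03 in FOXO hearts (log2 fold change -2.32 ± 0.36, adjusted p = 0.00541), and 12.89 and 12.80 in control and 10.10 and 11.33 in FOXO hearts at 1 week. All FOXO arrays lay below all control arrays. A second, dimmer probe set of Rnf11 was not called (0.14 ± 0.33, adjusted p = 0.843), so the fall rests on 1 of 2 probe sets, and the gene was named after its values were seen. CG8012 read 8.83 and 9.30 in control and 5.34 and 5.69 in FOXO hearts (log2 fold change -3.55 ± 0.40, adjusted p = 9.27e-04), and its difference of -1.79 at 1 week was not called (adjusted p = 0.0616). The zinc finger gene cas, a factor of neural stem cells, read 8.48 and 8.77 in control and 3.92 and 4.22 in FOXO hearts (log2 fold change -4.56 ± 1.05, adjusted p = 0.0369), while the FOXO replicates at 1 week read 7.50 and 3.66. nAChRbeta1, an acetylcholine receptor subunit, fell by 2.34 on its brighter probe set and not on the other (-0.09 ± 0.29, adjusted p = 0.889). phu (-1.69 ± 0.17), Naglu, a lysosomal sugar hydrolase (-1.16 ± 0.13), and the tyrosine kinase gene Abl (-0.75 ± 0.13) fell at 5 weeks, and their FOXO effect differed from that at 1 week (0.0212, 0.0112, 0.0134 as adjusted p). These 3 genes were named after their values were seen. Rnf11 lost its call without control 5 weeks replicate 1 or FOXO 5 weeks replicate 2 (adjusted p up to 0.0553). cas lost its call without any 1 of the 4 arrays of 5 weeks, or without either control array of 1 week (adjusted p up to 0.179). nAChRbeta1 lost its call without any 1 of the 4 arrays of 5 weeks (adjusted p up to 0.164). Abl lost its call without control 5 weeks replicate 2, FOXO 5 weeks replicate 1 or FOXO 5 weeks replicate 2 (adjusted p up to 0.0744).

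**Figure D3:**
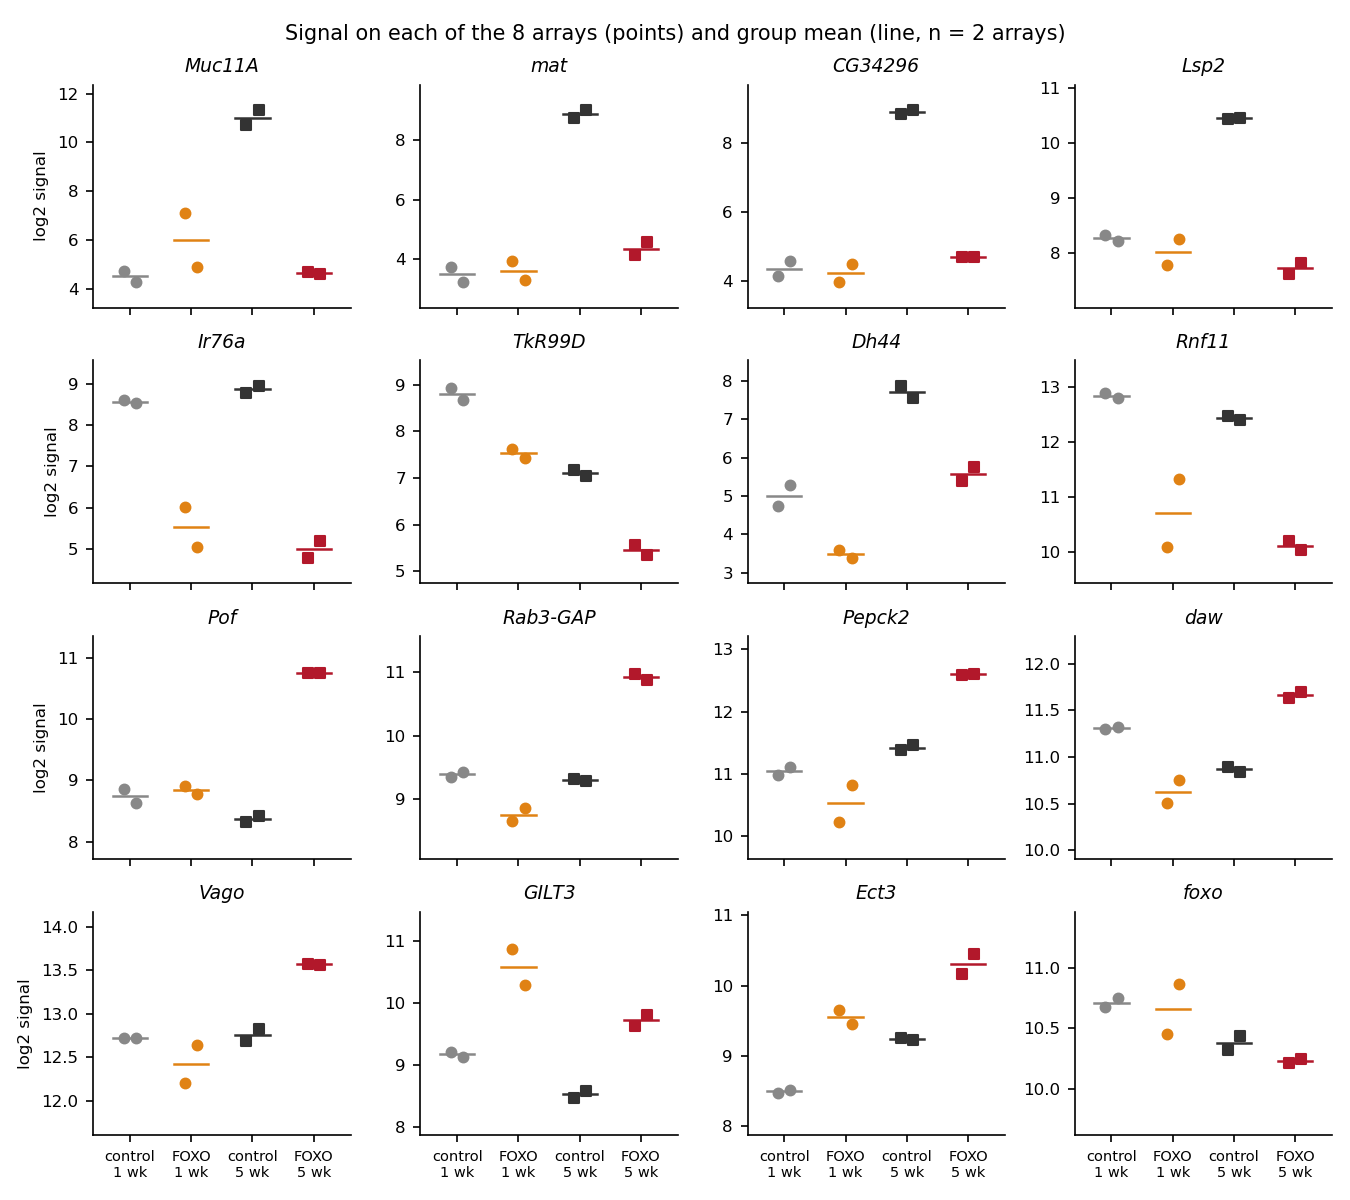
Log2 signal of 16 genes (1 panel each) on each of the 8 arrays, with a line at each group mean (n = 2 arrays). The top row shows falls against control hearts of 5 weeks, the second row genes lower in FOXO hearts at both ages, and the lower rows rises and foxo itself; the y axis differs between panels and does not start at 0.

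Among genes measured in young hearts, 15 rises were named by size and fall into separate patterns at 1 week. CG12699 (5.68 ± 0.36), CG8701 (5.19 ± 0.27), CG9016 (5.15 ± 0.27), CG17376 (4.50 ± 0.38), CG31226 (4.40 ± 0.36) and CR17567 (4.27 ± 0.30) rose most. They were lower in FOXO than in control hearts at 1 week, with log2 fold changes of -2.29 to -4.23, as the late spermatogenesis genes were (median -2.06). Among the 7562 of the 7652 probe sets measured in young hearts that were not over 1 lower in FOXO hearts at 1 week, 56 were higher and 115 lower at 5 weeks. The other 9 named rises lay within 1 between the crosses at 1 week except CG3397 (1.22) and CG4306 (2.07), which were higher in young FOXO hearts too without a call (adjusted p = 0.163 and 0.0639). CG11854, the largest of them, read 7.36 and 7.23 in control and 11.03 and 11.04 in FOXO hearts (log2 fold change 3.74 ± 0.56, adjusted p = 0.00446), but its replicates at 1 week in FOXO hearts read 8.02 and 10.02. CG5968 (2.97 ± 0.25), CG7768 (2.23 ± 0.30), CG3085 (1.98 ± 0.28) and CG5509 (1.88 ± 0.28) rose as well (adjusted p between 2.04e-04 and 0.0045). A second, dimmer probe set of CG7768 (6.65 in control hearts) gave -0.17 ± 0.24 (adjusted p = 0.737). CG3397 lost its call without any 1 of the 4 arrays of 5 weeks (adjusted p up to 0.0855). CG4306 lost its call without any 1 of the 4 arrays of 5 weeks, or without either control array of 1 week (adjusted p up to 0.179).

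Pof, which encodes a protein that binds the genes of the fourth chromosome, read 8.32 and 8.42 in control and 10.75 and 10.75 in FOXO hearts (log2 fold change 2.38 ± 0.14, adjusted p = 4.61e-05). The 4 arrays of 1 week lay between 8.63 and 8.92, so only the old FOXO arrays stood out. Those 2 arrays also had high male germline transcripts. The part of that in this and the other rises measured in young hearts was not tested. Of the 51 late spermatogenesis genes 3 were measured in young hearts too. Rab3-GAP, named for the activation of the Rab3 GTPase of vesicle release, read 9.32 and 9.29 in control and 10.97 and 10.88 in FOXO hearts (log2 fold change 1.62 ± 0.14, adjusted p = 2.16e-04). At 1 week it was -0.64 in the same contrast (adjusted p = 0.0565), and the difference of the effects passed the test (adjusted p = 2.42e-04). Root, the gene of the ciliary rootlet protein, rose by 1.49 ± 0.18 and sm, an RNA-binding protein of the hnRNP class, by 1.18 ± 0.19. The neuropeptide gene CNMa rose by 0.95 ± 0.16, from 6.09 and 6.15 to 6.93 and 7.20, which is closer to the 7.28 and 7.56 of young control hearts. Root, sm and CNMa were named after their values were seen. sm lost its call without control 5 weeks replicate 2 or FOXO 5 weeks replicate 1 (adjusted p up to 0.073). CNMa lost its call without control 5 weeks replicate 1, control 5 weeks replicate 2 or FOXO 5 weeks replicate 2 (adjusted p up to 0.0804).

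A smaller set of rises was shared by both ages. GILT3, of a family of lysosomal thiol reductases, read 8.47 and 8.58 in control and 9.62 and 9.81 in FOXO hearts at 5 weeks (log2 fold change 1.19 ± 0.21, adjusted p = 0.0101) and 9.21 and 9.13 in control and 10.86 and 10.29 in FOXO hearts at 1 week (log2 fold change 1.40, adjusted p = 0.0101). Ect3, a secreted beta-galactosidase relative, read 9.25 and 9.22 in control and 10.16 and 10.45 in FOXO hearts (log2 fold change 1.07 ± 0.15, adjusted p = 0.00394), and rose by 1.05 at 1 week (adjusted p = 0.0101). In each gene the FOXO arrays lay above the control arrays of their age. The secreted feeding signal fit rose by 0.92 ± 0.23 at 5 weeks, from 9.89 and 10.11 to 10.89 and 10.96, and gave 0.91 at 1 week without a call (adjusted p = 0.0961). All 3 were named after their values were seen. GILT3 lost its call without control 5 weeks replicate 1, control 5 weeks replicate 2 or FOXO 5 weeks replicate 2 (adjusted p up to 0.087). fit lost its call without any 1 of the 4 arrays of 5 weeks, or without either control array of 1 week (adjusted p up to 0.257).

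**Figure D4:**
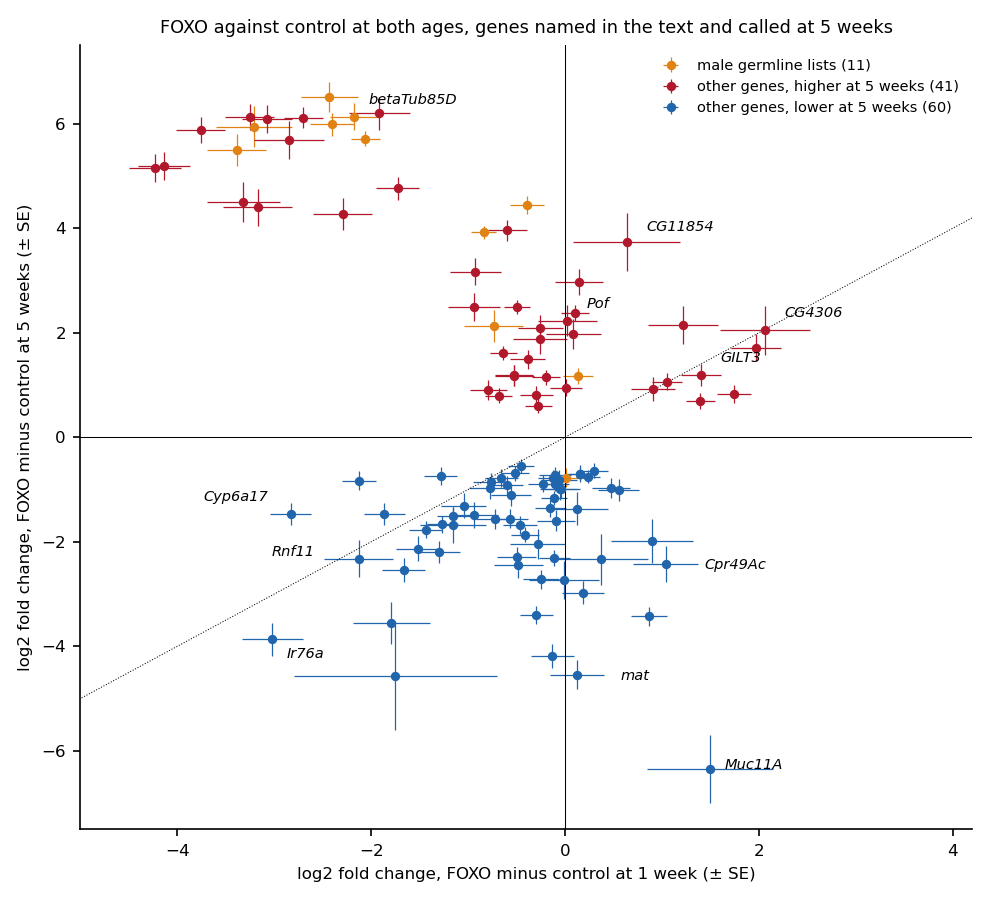
Log2 fold change of FOXO over control hearts at 1 week (x axis) and at 5 weeks (y axis), each with its SE (n = 2 arrays a group), for genes named in the text and called at 5 weeks. The dotted line marks equal effects; Ir76a, Rnf11, GILT3 and CG4306 lie near it, Muc11A and mat far below it, and the male germline genes at the upper left.

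Signalling genes were read by role. Over 1094 genes of the lists outside the male germline, 11 were higher (1.01%) and 51 lower (4.66%), beside 10.3% and 3.21% of all genes. With 6 arrays 38 were higher (3.47%) and 172 lower (15.7%), beside 12.9% and 13.7% of all genes, so the share of falls is near that of all genes there. Without any 1 array of 5 weeks these became 7 to 8 higher and 18 to 22 lower, and without either control array of 1 week 10 and 31. In the insulin pathway 1 of 14 was lower: melt, a membrane-bound partner of the pathway, read 7.15 and 7.35 in control and 6.17 and 6.35 in FOXO hearts (log2 fold change -0.99 ± 0.21, adjusted p = 0.0241). Of the 14 genes 10 had negative values and 5 an unadjusted p under 0.05. With 6 arrays 5 of the 14 were lower and 0 higher. None of 11 TOR pathway genes was called (1 at unadjusted p under 0.05, 0 with 6 arrays), and raptor, a subunit of TOR complex 1, gave -0.43 ± 0.16. Of 16 genes known as FOXO targets in flies 1 was higher and 1 lower (1 and 2 with 6 arrays). The higher one, daw, an activin-type ligand that FOXO is known to repress in muscle, read 10.90 and 10.84 in control and 11.63 and 11.70 in FOXO hearts (log2 fold change 0.80 ± 0.14, adjusted p = 0.011), and the difference at 1 week was -0.68. The effect changed between the ages (difference 1.48, adjusted p = 0.00274). The lower one, upd2, a ligand of the JAK-STAT pathway, read 5.86 and 6.25 in control and 5.15 and 5.01 in FOXO hearts (log2 fold change -0.98 ± 0.20, adjusted p = 0.0207). melt and daw lost their calls without any 1 of the 4 arrays of 5 weeks (adjusted p up to 0.151). upd2 lost its call without control 5 weeks replicate 2, FOXO 5 weeks replicate 1 or FOXO 5 weeks replicate 2 (adjusted p up to 0.136).

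All 17 receptor tyrosine kinase genes had negative values, with a median of -0.53 (-0.45 to -0.89 under the other scalings), beside a median of -0.12 for all genes. Of the 17, 11 were measured in young hearts, 1 of them lower. Over all 17 genes 3 were lower (8 with 6 arrays), beside 3.21% of all genes (13.7% with 6 arrays). The lower ones were jeb, the ligand of the Alk receptor (-0.89 ± 0.14), the FGF receptor btl (-0.86 ± 0.18) and aos, an inhibitor of the EGF receptor (-0.73 ± 0.16, from 8.75 and 8.51 to 7.95 and 7.86). jeb was dim, at 4.49 and 4.43 in control and 3.62 and 3.51 in FOXO hearts. Of 26 neuropeptide and receptor genes 4 were lower: Dh44 and TkR99D, given above, the clock neuropeptide Pdf (6.55 and 6.57 in control and 4.79 and 4.59 in FOXO hearts, log2 fold change -1.87 ± 0.14, adjusted p = 1.35e-04) and the receptor gene NPFR (-0.81 ± 0.19). NPFR was dim, at 4.09 and 3.93 in control and 3.26 and 3.14 in FOXO hearts. With 6 arrays 12 of the 26 were lower and 1 higher, beside 13.7% and 12.9% of all genes. Of 20 genes of JNK signalling and cell death 1 was lower, the initiator caspase gene Dronc (10.16 and 10.10 in control and 9.26 and 9.23 in FOXO hearts, log2 fold change -0.88 ± 0.16, adjusted p = 0.0114). With 6 arrays 2 of these 20 were lower. The TGF-beta list had daw alone called among 19 (2 higher and 2 lower with 6 arrays). In the JAK-STAT list upd2 alone was called among 7 (3 lower with 6 arrays), and all 7 values were negative. No gene was called among 7 of the Wnt, Notch and Hippo pathways (2 at unadjusted p under 0.05, 1 lower with 6 arrays), where yki, the effector of Hippo signalling, gave -0.48 ± 0.19 and Notum -0.49 ± 0.19. Nor was any of 23 nuclear receptor and hormone genes (4 at unadjusted p under 0.05, 1 higher and 4 lower with 6 arrays), with Met, a juvenile hormone receptor, at -0.61 ± 0.18 and Eip78C at -0.62 ± 0.17. jeb lost its call without control 5 weeks replicate 1 or FOXO 5 weeks replicate 2 (adjusted p up to 0.0617). btl, aos and NPFR lost their calls without any 1 of the 4 arrays of 5 weeks, or without either control array of 1 week (adjusted p up to 0.212). Dronc lost its call without any 1 of the 4 arrays of 5 weeks (adjusted p up to 0.0886).

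Of 113 genes on the muscle and heart lists none was higher and 3 were lower (2.65%), near the 3.21% of all genes called lower, and their median was -0.20 (all genes -0.12). With 6 arrays 1 was higher and 16 lower (14.2%), near the 13.7% of all genes. The 3 were Scp2, given above, Act88F, the flight muscle actin (5.49 and 5.21 in control and 4.75 and 4.56 in FOXO hearts, log2 fold change -0.70 ± 0.16, adjusted p = 0.0364), and the inward rectifier channel gene Irk3 (5.68 and 5.51 in control and 4.34 and 4.11 in FOXO hearts, log2 fold change -1.37 ± 0.32, adjusted p = 0.0385). Act88F and Irk3 were dim on every array. None of 10 thick filament genes was called (0 at unadjusted p under 0.05, 1 lower with 6 arrays), and the giant proteins of the sarcomere gave -0.41 ± 0.22 for sls, from 9.99 and 10.05 to 9.44 and 9.78, and -0.49 ± 0.25 for Obsc (adjusted p = 0.303 and 0.279). Of 19 Z-disc and attachment genes 18 were negative and none was called (1 at unadjusted p under 0.05, 1 lower with 6 arrays), with the integrin gene if at -0.49 ± 0.24 and Zasp67 at -0.51 ± 0.13. The group medians lay between -0.08 for matrix and -0.35 for ion channels, and all were negative under every scaling. None of 15 cardiac transcription factors was called (6 at unadjusted p under 0.05, 2 lower with 6 arrays), where ush gave -0.49 ± 0.16 and eve -0.50 ± 0.17. None of 21 matrix genes was called (1 at unadjusted p under 0.05, 2 lower with 6 arrays), with the peroxidase gene Pxn at -0.76 ± 0.29 and trol, the perlecan of the basement membrane, at -0.36 ± 0.17. Of 7 dimmer probe sets of trol 1 was lower (-0.91, adjusted p = 0.0124). Act88F and Irk3 lost their calls without any 1 of the 4 arrays of 5 weeks, or without either control array of 1 week (adjusted p up to 0.215).

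The metabolism lists, counted here together with the 69 mitochondrial and 28 cytosolic ribosome genes, hold 236 genes. Of these 2 were called, 1 in each direction (0.424% each), and their median was 0.06 (all genes -0.12). Of all genes 10.3% were higher and 3.21% lower. With 6 arrays 4 of the 236 were higher (1.69%) and 2 lower (0.847%), beside 12.9% and 13.7% of all genes. Pepck2, an enzyme of gluconeogenesis, read 11.39 and 11.46 in control and 12.59 and 12.61 in FOXO hearts (log2 fold change 1.18 ± 0.20, adjusted p = 0.00996), 2.26-fold higher. The 4 young arrays lay at or below 11.11, and the old FOXO arrays were the highest of the 8. Glys, glycogen synthase, read 11.69 and 11.58 in control and 11.15 and 11.01 in FOXO hearts (log2 fold change -0.55 ± 0.13, adjusted p = 0.0461), and the contrast at 1 week gave -0.45 (adjusted p = 0.157). None of 22 genes of the citric acid cycle and fatty acid oxidation was called (0 at unadjusted p under 0.05 and 0 with 6 arrays), with Mtpbeta at 0.30 ± 0.18 and SdhD at 0.23 ± 0.14. None of 42 lipid genes was called (4 at unadjusted p under 0.05, 3 higher with 6 arrays), and the elongase gene bond gave 0.73 ± 0.20 (adjusted p = 0.073) and Agpat2 0.43 ± 0.14. Of 54 genes of the respiratory chain and ATP synthase 47 had positive values, with a median of 0.09 that turned to -0.27 under centring, and none was called (0 at unadjusted p under 0.05 and 0 with 6 arrays). COX7B gave 0.28 ± 0.14 (0.09 and -0.38 on its other probe sets) and ND-B12 -0.27 ± 0.13. The 69 genes of the mitochondrial ribosome had a median of 0.12, or -0.25 under centring, and 0 calls (0 at unadjusted p under 0.05 and 0 with 6 arrays), with mRpS21 at 0.30 ± 0.15 and mRpS33 at 0.24 ± 0.13. The 28 cytosolic ribosome genes lay between -0.11 (RpL27) and 0.12, with 0 calls (0 at unadjusted p under 0.05 and 0 with 6 arrays). Pepck2 lost its call without any 1 of the 4 arrays of 5 weeks (adjusted p up to 0.0835). Glys lost its call without any 1 of the 4 arrays of 5 weeks, or without either control array of 1 week (adjusted p up to 0.235).

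Genes of protein quality control, the theme of the series title, had 1 of 84 called higher (1.19%) and none lower. Of all genes 10.3% were higher and 3.21% lower. The median of the 84 between old FOXO and old control hearts was -0.02 (all genes -0.12). With 6 arrays 1 of the 84 was higher (1.19%) and 5 lower (5.95%), beside 12.9% and 13.7% of all genes. The 26 somatic proteasome genes lay between -0.12 and 0.16, with Rpt5 at 0.14 ± 0.13 and Rpn1 at 0.16 ± 0.16, and none was called (0 at unadjusted p under 0.05 and 0 with 6 arrays). None of 14 chaperone genes was called (0 at unadjusted p under 0.05 and 0 with 6 arrays), where Hsc70-1 gave -0.41 ± 0.20 on its brightest probe set and 0.76 and -0.27 on the others, and the heat shock regulator Hsf -0.20 ± 0.13. Of 17 genes of folding and stress in the endoplasmic reticulum 15 had negative values and none was called (4 at unadjusted p under 0.05, 4 lower with 6 arrays), with the disulfide isomerase relative CaBP1 at -0.44 ± 0.13 (adjusted p = 0.0853) and Pdi at -0.61 ± 0.21. Of 27 autophagy and lysosome genes 1 rose, Atg8b, the Atg8 copy of the male germline (4.46 and 4.53 in control and 9.11 and 9.42 in FOXO hearts, log2 fold change 4.77 ± 0.22, adjusted p = 2.25e-05). The FOXO arrays lay above the 6.72 and 6.66 of young control hearts.

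Of 88 immune genes 2 were higher (2.27%) and 1 lower (1.14%), beside 10.3% and 3.21% of all genes, and with 6 arrays 9 (10.2%) and 12 (13.6%), beside 12.9% and 13.7%. Antimicrobial peptides, the secreted effectors of the Toll and Imd pathways, had 0 of 12 called (3 at unadjusted p under 0.05, 1 higher and 2 lower with 6 arrays). Drsl5, of the drosomycin family, read 9.53 and 9.95 in control and 8.10 and 8.83 in FOXO hearts (log2 fold change -1.27 ± 0.36, adjusted p = 0.0805), and Drsl6 gave -0.41 ± 0.14. Drsl5 was 0.98 in the contrast at 1 week. The 13 bomanins and other induced peptides had a median of 0.22, which turned to -0.14 under centring, and 0 calls (0 at unadjusted p under 0.05, 1 higher with 6 arrays), with IM33 at 0.22 ± 0.20 and Nazo at 0.42 ± 0.43. Of 26 pathway genes none was called (2 at unadjusted p under 0.05, 2 higher and 1 lower with 6 arrays), where the Toll kinase gene pll gave -0.65 ± 0.18 (adjusted p = 0.0682) and the Imd inhibitor PGRP-LF -0.41 ± 0.17. Among 24 thioester proteins, lysozymes and scavenger receptors 2 were higher: LysX, a lysozyme, read 9.30 and 9.47 in control and 10.11 and 10.47 in FOXO hearts (log2 fold change 0.91 ± 0.19, adjusted p = 0.0251), and the scavenger receptor gene Sr-CII rose by 0.61 ± 0.14 at low signal. Vago, a secreted factor known from antiviral defence and named after its values were seen, read 12.69 and 12.82 in control and 13.57 and 13.57 in FOXO hearts (log2 fold change 0.81 ± 0.17, adjusted p = 0.0272). Its FOXO arrays lay above the other 6. The humoral stress gene TotC fell by 0.98 ± 0.21, from 10.62 and 10.65 to 9.43 and 9.88, as 1 of 5 Turandot genes, and the hemocyte factor lz gave -0.78 ± 0.22 without a call. LysX lost its call without control 5 weeks replicate 1, control 5 weeks replicate 2 or FOXO 5 weeks replicate 2 (adjusted p up to 0.166). Sr-CII and Vago lost their calls without any 1 of the 4 arrays of 5 weeks, or without either control array of 1 week (adjusted p up to 0.214). TotC lost its call without control 5 weeks replicate 1, control 5 weeks replicate 2 or FOXO 5 weeks replicate 1 (adjusted p up to 0.155).

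Of 171 detoxification genes 14 were lower (8.19%) and 3 higher (1.75%), beside 3.21% and 10.3% of all genes. With 6 arrays 35 were lower (20.5%), beside 13.7% of all genes. Of 34 glutathione S-transferase genes 7 fell and none rose. GstD3 read 11.62 and 11.78 in control and 10.18 and 10.10 in FOXO hearts (log2 fold change -1.56 ± 0.19, adjusted p = 0.00159), and GstD5 read 11.69 and 11.55 in control and 10.41 and 10.22 in FOXO hearts (log2 fold change -1.31 ± 0.23, adjusted p = 0.0112). Young control hearts read 8.16 and 8.11 for GstD5, and the FOXO arrays lay below control at both ages (1 week -1.04, adjusted p = 0.062). The genes GstD2 to GstD8 follow each other along 1 chromosome in RefSeq's gene order. GstD3 (-1.56 ± 0.19), GstD4 (-1.56 ± 0.18), GstD5 (-1.31 ± 0.23), GstD6 (-1.68 ± 0.34) and GstD7 (-0.79 ± 0.17) of that run fell, GstD2 (-1.07 ± 0.39, adjusted p = 0.152) and GstD8 (-0.43 ± 0.19) were not called, and the neighbours GstD1 (-0.17 ± 0.13) and GstD9 (-0.19 ± 0.16) before it were not called either. GstD10 (-0.74 ± 0.17) fell at both ages, by 1.28 at 1 week. GstD1, GstD2, GstD7, GstD8, GstD9 and GstD10 were named after their values were seen. Copies this alike can share probes, so the split between them is uncertain. GstE10 fell by 1.36 ± 0.16. GstD5 and GstD6 lost their calls without any 1 of the 4 arrays of 5 weeks (adjusted p up to 0.142). GstD7 and GstD10 lost their calls without any 1 of the 4 arrays of 5 weeks, or without either control array of 1 week (adjusted p up to 0.212).

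Of 81 cytochrome P450 genes 1 was higher and 3 lower (8 and 14 with 6 arrays). Of all genes 10.3% were higher and 3.21% lower (12.9% and 13.7% with 6 arrays), so the share of P450 falls is near that of all genes. Cyp6g2 is given above. Cyp6a17 fell at both ages, with -1.46 ± 0.21 at 5 weeks and -2.83 at 1 week, and with a smaller effect at 5 weeks (difference 1.37, adjusted p = 0.0325). Cyp305a1 fell by 1.10 ± 0.21. Cyp312a1 rose, from 5.93 and 6.47 to 9.37 and 9.37 (log2 fold change 3.17 ± 0.26, adjusted p = 1.79e-04). Of 35 UDP-glycosyltransferase genes 1 was higher, Ugt305A1 (2.50 ± 0.13), and 3 lower: Ugt36E1, given above, Ugt302E1 (-1.60 ± 0.20) and Ugt50B3 (-1.98 ± 0.42). Among 21 antioxidant genes the peroxiredoxin gene Prx1 rose from 4.72 and 4.17 to 8.31 and 8.50 (log2 fold change 3.96 ± 0.20, adjusted p = 2.61e-05), and Sod3, an extracellular superoxide dismutase, fell from 8.66 and 8.90 to 7.65 and 7.90, 2.01-fold lower (adjusted p = 0.0269). The groups did not overlap in either gene, which held for 62.4% of all probe sets. Prx1, Cyp312a1 and Ugt305A1 rose from low signal on the 2 arrays with high male germline transcripts, and the part of that was not tested. The dimmer probe set of Sod3 gave -0.67 ± 0.18 (adjusted p = 0.0625). Cyp305a1 lost its call without control 5 weeks replicate 1, control 5 weeks replicate 2 or FOXO 5 weeks replicate 1 (adjusted p up to 0.0992). Ugt50B3 and Sod3 lost their calls without any 1 of the 4 arrays of 5 weeks, or without either control array of 1 week (adjusted p up to 0.166).

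Among 197 secreted proteins of epithelia 19 were lower (9.64%) and 4 higher (2.03%), beside 3.21% and 10.3% of all genes, and with 6 arrays 50 were lower (25.4%), beside 13.7%. Of 46 gut-type proteases and mucins 11 were lower and 1, LysX, higher (18 and 1 with 6 arrays), with a median of -0.45 (-0.82 under centring). Beside Muc11A these were the mucin gene Muc68Ca (-1.48 ± 0.21), the protease genes Jon74E (-1.49 ± 0.25) and Jon65Aiv (-0.78 ± 0.15), the maltase gene Mal-A2 (-0.91 ± 0.17) and 6 more. A dimmer probe set of Muc68Ca was negative without a call (-0.67, adjusted p = 0.235), and another fell (-1.51). Most of these genes were dim: 3 of the 46 were measured in young hearts. Of 104 cuticle protein genes 8 were lower and 1 higher (25 and 2 with 6 arrays), with a median of -0.31. Cpr49Ae read 8.57 and 8.41 in control and 6.63 and 6.28 in FOXO hearts (log2 fold change -2.04 ± 0.28, adjusted p = 0.0032), against 11.66 and 11.50 in young control hearts, and old FOXO hearts were the lowest of the 4 groups. TwdlE (-0.69 ± 0.14) and Cpr76Ba (-0.64 ± 0.14) were lower and Twdlalpha (1.15 ± 0.14) higher. Of 47 odorant-binding protein genes 2 were higher and none lower (4 and 7 with 6 arrays). Of the 47 values 31 were negative, with a median of -0.19. Obp56d read 9.03 and 9.39 in control and 11.67 and 11.75 in FOXO hearts (log2 fold change 2.50 ± 0.27, adjusted p = 7.17e-04), and Obp56i rose by 2.10 ± 0.23. The young arrays lay at or below 7.02 for Obp56d. Jon74E lost its call without control 5 weeks replicate 1 or FOXO 5 weeks replicate 2 (adjusted p up to 0.076). Jon65Aiv, Mal-A2 and Cp38 lost their calls without any 1 of the 4 arrays of 5 weeks (adjusted p up to 0.119). TwdlE and Cpr76Ba lost their calls without any 1 of the 4 arrays of 5 weeks, or without either control array of 1 week (adjusted p up to 0.19).

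**Figure D5:**
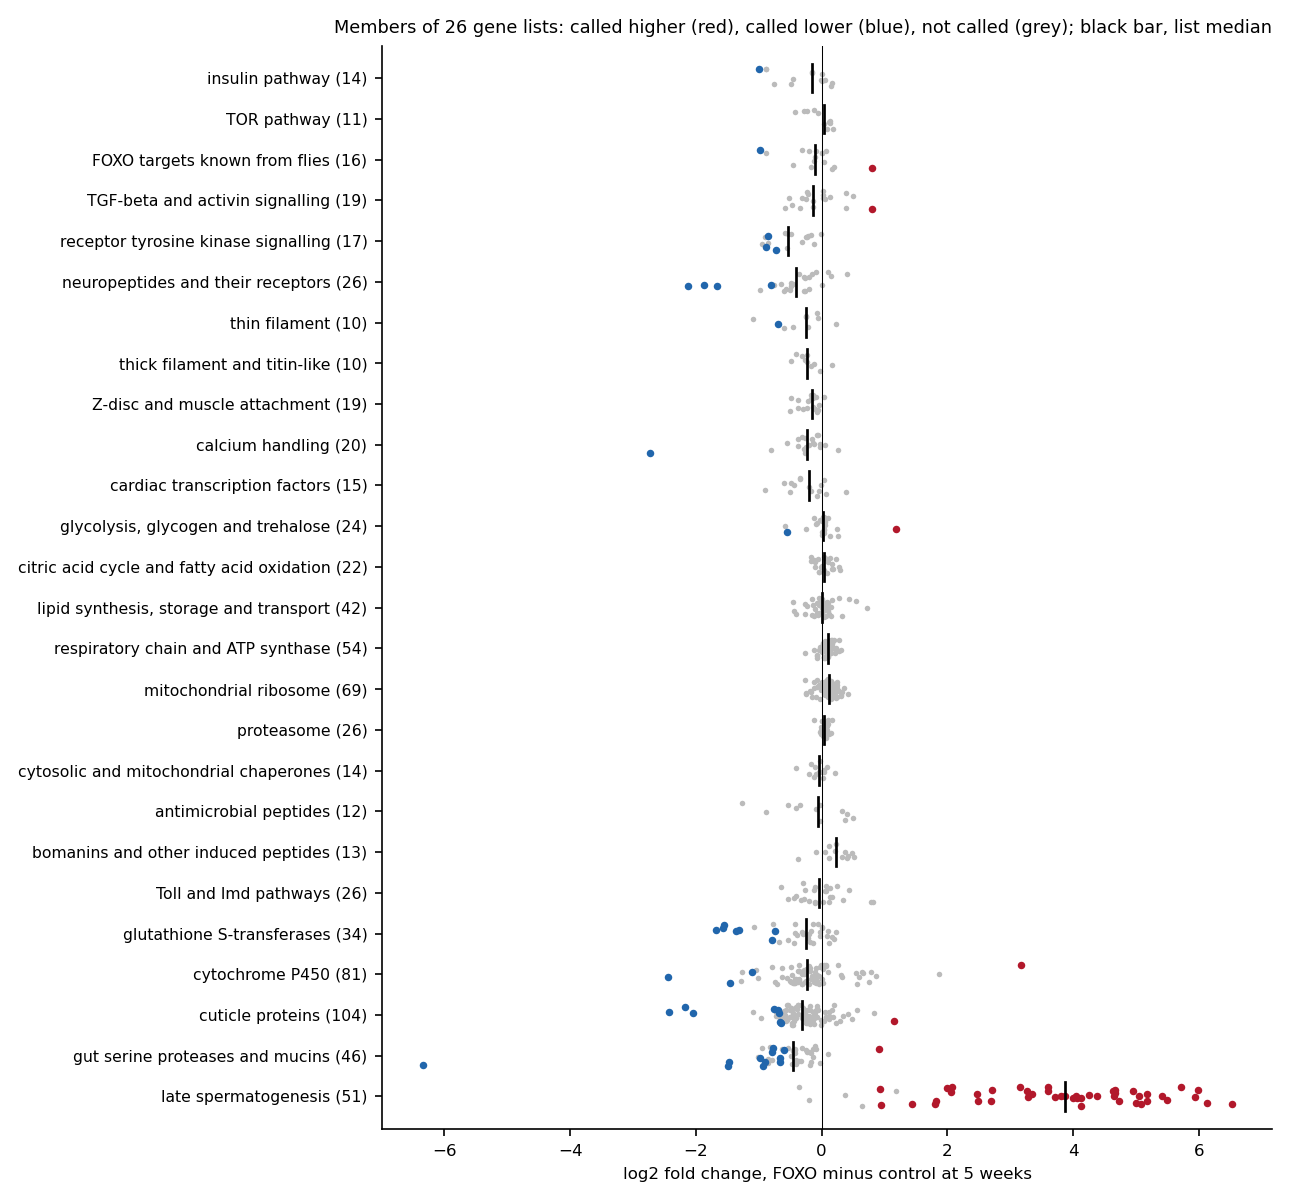
Log2 fold change of FOXO over control hearts at 5 weeks (x axis) for the members of 26 gene lists, with the number of members in parentheses; red points were called higher, blue lower and grey not called, and the black bar is the list median. The late spermatogenesis list has its median at 3.87, while the muscle and heart lists shown have theirs between -0.24 and -0.16.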

How the data were processed

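Affymetrix arrays of amplified total RNA from 8 heart samples were used, 2 in each of 4 groups taken from the sample labels. The values are the authors' deposited log2 signals, 1 per probe set; that they are on a log2 scale was judged from their range. The sources used here do not give their summarisation or normalization. In the submitters' processing notes limma is named, with no version. Of 18952 probe sets 183 array controls were left out. GEO's platform annotation gave 1 symbol for 13647 of the remaining 18769, several for 402 and none for 4720, and 13544 symbols were updated by gene ID through RefSeq. Each of 11982 genes is read from its brightest probe set, by the mean of all arrays.

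A model of 4 group means was fitted to all 8 arrays with limma 3.58.1 in R 4.3.3 (4 residual degrees of freedom, moderated test, two-sided), and p-values were adjusted by Benjamini-Hochberg over all 18769 probe sets. Tables and plots were made with Python 3.11.15, pandas 2.3.3 and matplotlib 3.10.9. The fit was tested on simulated data. The contrasts were FOXO minus control at 5 weeks, the same at 1 week and their difference. The 51 gene lists and the members described were chosen with earlier results of these data known. Named were genes called with groups that do not overlap: the 15 largest rises measured in young hearts (log2 of at least 7 on all 4 arrays of 1 week) and the 15 largest falls, both off the male germline lists, the 5 largest rises off those lists not measured in young hearts and the 6 largest rises on them. To these were added foxo, up to 5 called members of each list with the smallest p, or up to 2 where none was called. Genes outside this rule are said to have been named after their values were seen; marker genes are given as values. Alternatives were quantile normalization, 2 centrings, a filter on the dimmest 40%, fits of 4 and of 6 arrays, eBayes with trend and robust, a replicate block, 1 probe set per gene, other minimums for young hearts, and each array left out in turn. The fits without 1 array of 1 week, the exclusion of probe sets over 1 lower in young FOXO hearts and the genes outside the rule were added after seeing the data.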

Additional observations from a re-analysis of the deposited data

Results flagged for a closer look

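For 67 of the 112 genes named in the text and called at 5 weeks, the FOXO effect differed between the ages. Over all genes the same held for 1153 of the 1234 called higher and for 144 of the 385 called lower. The difference itself was tested as an interaction in limma with all 8 arrays, and its adjusted p ran from 1.18e-05 to 0.0397. The number after each gene is its log2 fold change of FOXO over control hearts at 5 weeks minus that at 1 week. Each difference rests in part on young FOXO hearts, whose replicates differed most.

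Among falls at 5 weeks the effect was more negative than at 1 week for Muc11A (-7.84), mat (-4.67), CG34296 (-4.06), Ag5r (-4.3), CG16762 (-3.1), CG14280 (-3.16), Scp2 (-2.73), Lsp2 (-2.47), Cyp6g2 (-1.96), Cpr49Ac (-3.46), upd2 (-1.45), Pdf (-1.45), GstE10 (-1.21), Ugt302E1 (-1.5), Ugt50B3 (-2.88), Sod3 (-1.56), Cpr49Ae (-1.76), Cpr76Ba (-0.94), Cp38 (-0.85), Naglu (-1.05), Abl (-0.99), phu (-1.22), Fst (-1.8) and Srg2 (-2.2). In contrast to these, Cyp6a17 and Gr63a, a subunit of the carbon dioxide receptor named after its values were seen, fell at both ages and less at 5 weeks, with differences of 1.37 and 1.29.

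Among rises at 5 weeks in genes off the male germline lists that were not over 1 lower in FOXO hearts at 1 week, the effect was more positive than at 1 week for CG5968 (2.83), Pof (2.27), CG7768 (2.21), CG3085 (1.9), CG5509 (2.14), Rab3-GAP (2.25), daw (1.48), Pepck2 (1.7), LysX (1.7), Sr-CII (0.88), Cyp312a1 (4.09), Ugt305A1 (3.0), Prx1 (4.56), Twdlalpha (1.35), Obp56d (3.44), Obp56i (2.35), Vago (1.11), Root (1.88) and sm (1.71). Prx1 and Cyp312a1 were low on all young arrays, while Rab3-GAP, Pepck2 and Vago were measured on all 8. The cut at 1 week does not by itself set genes apart from male germline transcripts. Genes of the male germline lists met it too, among them Prosalpha3T (-0.39 at 1 week), COX4L (-0.84), bol (-0.74) and ARY (0.14).

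Genes of the male germline lists, and the genes off those lists that were over 1 lower in FOXO hearts at 1 week, had these differences: CG12699 (8.53), CG8701 (9.32), CG9016 (9.38), CG17376 (7.82), CG31226 (7.57), CR17567 (6.57), CG17744 (8.12), lncRNA:CR9284 (9.39), CG30039 (8.82), CG31948 (9.17), CG18449 (9.65), tHMG1 (8.95), betaTub85D (8.31), tHMG2 (8.4), ProtA (9.15), Mst33A (7.78), Mst77F (8.88), Atg8b (6.49), bol (2.87), ARY (1.03), Prosalpha3T (4.84) and COX4L (4.76).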

How the results depend on the processing

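Against 1956 probe sets called, 9573 were called after centring on array medians, 1152 without the dimmest 40% of probe sets, 3380 with the 4 arrays of 5 weeks alone, 4278 with 6 arrays and 1368 to 4278 with 1 array left out. Against 1380 higher there were 835 without the dimmest probe sets. Against 576 lower there were 1299 after quantile normalization, 8238 after centring, 357 after centring on the probe sets measured in young hearts, 317 without the dimmest, 1709 with 4 arrays, 2494 with 6 and 167 to 2494 with 1 array left out. Among probe sets measured in young hearts the 67 higher became 151 with 4 arrays, 210 with 6, 155 and 36 at a minimum of 6 and 8, and 34 to 210 with 1 array left out. The 124 lower became 227 (quantile), 2612 (centred), 79 (centred on young), 460 (4 arrays), 718 (6 arrays), 219 and 57 (minimum of 6 and 8) and 31 to 718 (1 array left out). For the difference between ages, 1766 became 8997 (centred), 1082 (dimmest left out) and 1322 to 5541 (1 array left out). List members outside the male germline went from 11 higher to 7 (dimmest left out), 30 (4 arrays), 38 (6 arrays) and 7 to 38 (1 array left out), and from 51 lower to 84 (quantile), 424 (centred), 31 (dimmest left out), 129 (4 arrays), 172 (6 arrays) and 18 to 172 (1 array left out). Centring moves every probe set down by about 0.36, and a filter or fewer arrays changes what enters the test; otherwise the cause was not tested. Leaving out either array of FOXO 1 week equals dropping that group here, as the lone array adds nothing to the spread.

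None of the named calls, nor foxo, turned direction, while list medians near 0, and those of the yolk, respiratory chain, mitochondrial ribosome, bomanin and spermatocyte regulator lists, turned sign under a centring. Of 1900 values of the 113 genes tested under alternatives (the named calls and foxo), 1662 kept their side of the threshold, 237 were no longer called and 1, foxo under centring, was newly called; 67 genes were called under every alternative. With the replicate number as a block 1898 probe sets were called (1366 higher, 532 lower). Samples with the same number deviated together at 0.33 between the groups of 5 weeks and at 0.01 to 0.11 between other groups, so the numbers were not taken to pair the arrays. With 2 arrays a group the number of arrays limits the precision.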

Other observations

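Across all genes, 26 were called lower and 7 higher in FOXO hearts at both ages, in arrays that share no sample. Of the 385 genes lower at 5 weeks 11 were called higher at 1 week, and of the 1234 higher at 5 weeks 536 were called lower at 1 week. Genes lower at both ages included hog (-2.20 ± 0.21 at 5 weeks and -1.30 at 1 week) and ACXD, an adenylyl cyclase (-1.50 ± 0.17 and -1.15), with adjusted p of 3.91e-04 and 0.00101 at 5 weeks. The chemosensory genes Ir76a and Gr63a (-0.83 ± 0.17 and -2.12) were on this list too. Genes higher at both ages included CG33640 (1.72 ± 0.26 and 1.97), CG14621 (0.82 ± 0.17 and 1.74) and HisT (0.69 ± 0.15 and 1.40). hog, ACXD, Gr63a, CG33640, CG14621 and HisT were named after their values were seen. Gr63a, CG14621 and HisT lost their calls without any 1 of the 4 arrays of 5 weeks, or without either control array of 1 week (adjusted p up to 0.174). CG33640 lost its call without control 5 weeks replicate 2 or FOXO 5 weeks replicate 2 (adjusted p up to 0.0548).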
